A study of Mus musculus with 15 samples.

Results

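Tumors treated with a MEK inhibitor alone were compared with tumors treated with an agonist CD40 antibody alone, which sets the 2 single agents of a combination therapy side by side. The comparison was made up of 7 of the 15 tumors of the series: the 3 given the inhibitor GDC-0623 (MEKi) together with control IgG, and the 4 that had received CD40 antibody (Ab) with the vehicle of the inhibitor. The labels' protocol gives 4 to 5 animals of each group for the array measurements, and any MEKi tumor beyond these 3 was not analysed here. All 45037 probe sets of the array other than its controls were tested, and each gene was read from its probe set of highest mean over the 15 arrays among those with exactly 1 symbol, which gave 18193 genes.

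The tumors were grown from PDA30364, a mouse line of pancreatic ductal adenocarcinoma, by subcutaneous injection, with Matrigel, into the flank of C57BL/6-Ly5.1 mice that were 6 to 12 weeks old. GDC-0623 was given daily at 30 mg/kg, and the antibodies, a chimeric agonist against mouse CD40 or control IgG, on days 3, 5 and 7 of treatment, with a last dose on the day before tumors were taken. Pieces of whole tumor were taken on day 26 after inoculation, and RNA from each animal was hybridized to 1 Affymetrix mouse array. The 4 control tumors (vehicle and control IgG) and the 4 combination tumors (both agents) are given as background. All tumors came from 1 cell line under the skin rather than in the pancreas, and the labels do not say whether the animals of a group were treated at the same time.

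MEK is the kinase that activates ERK, the last kinase of the growth signal started by oncogenic RAS in pancreatic cancer cells, and its inhibition slows the division of such cells. CD40 is a receptor on B cells, dendritic cells and macrophages, and agonist antibodies against it activate NF-kB in these cells and promote antigen presentation and T cell priming. The paper also reports that M2-polarized macrophages and myeloid derived suppressor cells in culture were sensitive to MEK inhibition, and M1-polarized macrophages much less so. The targets of both agents can therefore lie in the same cells, and a bulk tumor sample reads all cells together.

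Array medians were alike (5.16 to 5.23 on the log2 scale), and the ratios of 3' to 5' signal of the Gapdh and actin controls overlapped between the groups. The 18S control signal was 13.17 to 13.35 in MEKi and 12.87 to 13.10 in CD40 Ab arrays, a difference of 0.30 (p = 0.0571 by an exact permutation test, which cannot go lower with 3 and 4 arrays, and 0.2 adjusted over 7 tests). MEKi replicate 1 stood apart from the other 2 MEKi arrays, with the highest value of the first principal component (80.7 against 44.1 and 48.3) and the lowest Gapdh control signal (12.67 against 13.17 and 13.38). The animal numbers fell into a lower and an upper series. All 3 MEKi tumors and CD40 Ab replicates 3 and 4 were in the upper, CD40 Ab replicates 1 and 2 in the lower series.

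The genes higher in MEKi tumors included 20 of 23 fibroblast and matrix genes, 7 of 15 granulocytic genes and 5 of 10 mast cell genes, together with all 19 hair follicle genes and 11 of 21 skeletal muscle genes. The genes higher in CD40 Ab tumors included 13 of 24 mitotic genes and 6 of 15 genes of the unfolded protein response. No gene of antigen presentation or of the interferon gamma response lists passed between the 2 agents, while part of them were higher than in control tumors after either agent. These were among 15 of 47 lists without a passing gene.

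By limma's moderated test, 4100 of 45037 probe sets differed at an adjusted p under 0.05 (9.1%), 2157 higher in MEKi and 1943 higher in CD40 Ab tumors. In terms of genes, 1254 (6.89%) were higher in MEKi and 1046 (5.75%) higher in CD40 Ab tumors, 12.6% in all. Counts of list genes are to be read beside these shares. The differences upward under MEKi were the larger ones, as 609 genes (3.35%) higher in MEKi and 192 genes (1.06%) higher in CD40 Ab tumors also differed at least 2-fold. The median log2 fold change (log2 FC, MEKi minus CD40 Ab throughout) over all genes was -0.045. Below, a fold change is given with its SE and limma's adjusted p, and a single number in brackets after a gene is its log2 FC, for genes that passed unless stated. In 5251 genes (28.9%) the 3 MEKi and the 4 CD40 Ab arrays did not overlap. All 118 named genes that passed were among these, so non-overlap adds no support to a gene that passed and is given as a description. Against the 4 control tumors, MEKi alone gave 1953 genes up (10.7%) and 1894 down (10.4%), 21.1% in all, and CD40 Ab alone gave 184 up (1.01%) and 9 down (0.0495%), 1.06% in all. Within the upper animal number series, with 3 MEKi and 2 CD40 Ab arrays, 891 probe sets passed, and 1353 passed with the series as a covariate.

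**Figure D1:**
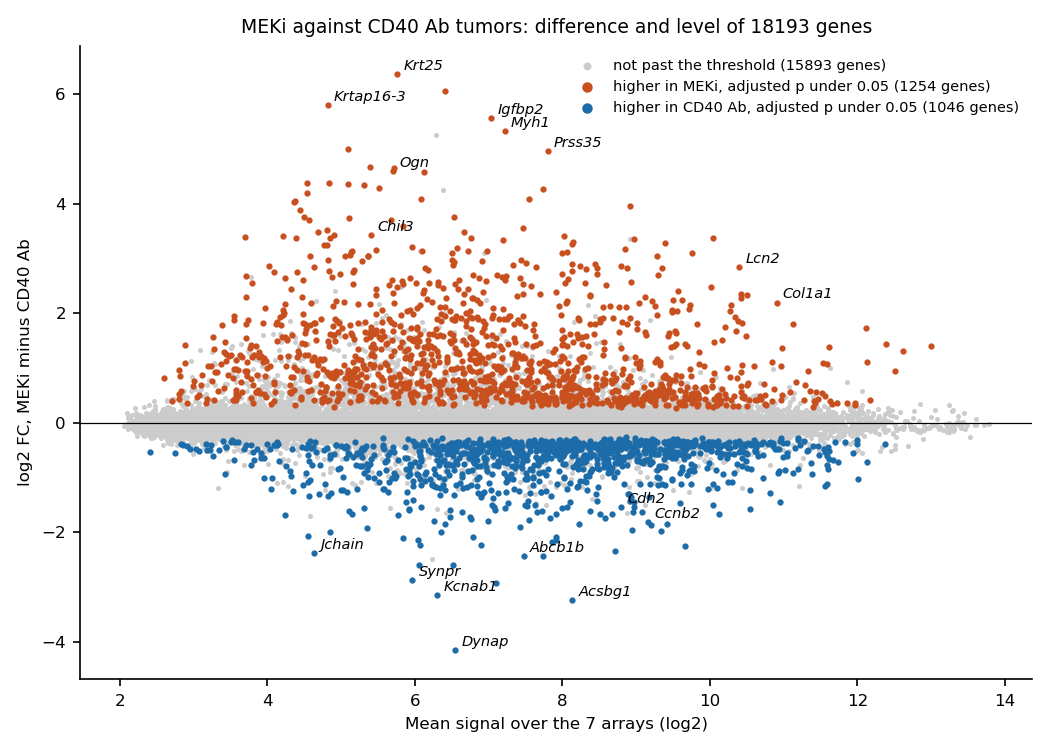
Difference between MEKi and CD40 Ab tumors (y axis, log2 FC, MEKi minus CD40 Ab) against the mean log2 signal over the 7 arrays (x axis), 1 point per gene. Orange points are the 1254 genes higher in MEKi and blue points the 1046 genes higher in CD40 Ab tumors. The orange cloud reaches beyond 6 on the log2 scale (Krt25), whereas the blue cloud ends at Dynap, a fall of 4.15.

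The 10 genes with the largest differences upward were taken from passing genes whose MEKi and CD40 Ab arrays do not overlap. Of these 10, 5 were genes of the hair follicle list and 2 were skeletal muscle genes. The signal of Krt25, a keratin of the inner root sheath of the hair follicle, was 9.23, 9.47 and 9.47 in the MEKi arrays and 3.09, 3.08, 3.04 and 2.92 in the CD40 Ab arrays (log2 FC 6.36 ± 0.091, adjusted p = 5.3e-08). The hair keratin-associated protein genes Krtap8-1 (6.06) and Krtap16-3 (5.80), the hair keratin gene Krt35 (4.99) and Tchh, which encodes trichohyalin of the inner root sheath (4.67), followed the same pattern. Every one of 19 measured hair follicle genes was higher in MEKi tumors (log2 FC 0.73 to 6.36, median 2.75). The mean level of this list was 6.97 to 7.21 in MEKi tumors, 3.87 to 3.93 in CD40 Ab tumors and 3.75 to 4.60 in combination tumors. Of the control tumors, 3 had 3.90 to 3.96, and control replicate 4, the only control of the upper animal number series, had 6.02. Of 15 epidermal keratinocyte genes, 6 were higher in MEKi tumors (median 1.01), among them Lgals7 (galectin-7, 3.56), the basal layer genes Krt5 (2.60) and Trp63 (2.52) and Calml3 (2.67). CD40 Ab replicate 3 had an epidermal level of 6.35, within the MEKi range of 5.91 to 6.59, while the other 3 CD40 Ab tumors had 4.75 to 4.86. With 1 array left out, 3 to 7 epidermal genes passed (3 without CD40 Ab replicate 2 or 4 or MEKi replicate 3), and within the upper series 2, with a median of 0.47.

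Skeletal muscle genes were higher in MEKi tumors in 11 of 21 cases (median 3.06). The fast myosin gene Myh1 had 11.55, 9.59 and 9.64 in MEKi arrays and 4.05, 3.23, 7.54 and 4.93 in CD40 Ab arrays (log2 FC 5.32 ± 0.96, adjusted p = 0.0152), so that the groups did not overlap although CD40 Ab replicate 3 stood well above the other CD40 Ab arrays. The giant sarcomere protein gene Ttn (4.64) and the troponin genes Tnnc2 (4.27) and Tnnt3 (3.48) also passed, and the skeletal actin gene Acta1 did not (log2 FC 3.35 ± 0.87, adjusted p = 0.0504). MEKi replicate 1 had a muscle level of 9.85, the remaining MEKi tumors had 7.21 and 7.31, and CD40 Ab tumors had 4.70 to 6.26. Without MEKi replicate 1 the median of the list was 1.99, with 16 genes higher and 1 lower in MEKi tumors, and without CD40 Ab replicate 1, 2 or 4 only 3 genes passed, without MEKi replicate 3 only 5. Within the upper series no muscle gene passed, while 15 of 19 hair follicle genes did. The hair follicle level separated all MEKi from all CD40 Ab tumors without overlap, so this signal and the treatment cannot be told apart at genes that follow it. Whether it measures the amount of skin in the tumor piece was not tested. The 2 skin lists did not match, with hair follicle and epidermal levels of 3.89 and 6.35 in CD40 Ab replicate 3 and of 7.06 and 5.91 in MEKi replicate 1. With the muscle and skin levels as covariates in a fit of all 15 arrays, 13 probe sets passed, and with the skin level alone 36. These covariates were built from the genes of the 3 tissue lists. With both, the sign turned without passing at 11 named genes. Of these, Il33, Cma1, Des and Epcam were outside the 3 lists. The rest were list members, whose own signal entered the covariates. With skin alone the sign also turned at Jchain and Cldn4. The 9 genes among the 13 probe sets, named here after their values were seen, were Krtap19-2, Wif1, Megf6, Igfbp5, Med12l and Pde7b, higher in MEKi tumors, and Kcnab1, Hmga2 and Ypel1, higher in CD40 Ab tumors.

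Of 23 fibroblast and matrix genes, 20 were higher in MEKi tumors, none was lower and 3 did not pass (median 1.75, all genes -0.045). Ogn, a small leucine-rich proteoglycan of the matrix, had 10.65, 6.74 and 7.59 in MEKi arrays and 4.75, 2.96, 3.89 and 3.35 in CD40 Ab arrays (log2 FC 4.59 ± 0.86, adjusted p = 0.0169). MEKi replicate 1 was the highest by a wide margin and the other 2 MEKi arrays still lay above every CD40 Ab array. Lum, which encodes the related proteoglycan lumican, had 12.55, 11.54 and 11.80 against 9.55, 8.10, 8.51 and 8.23 (log2 FC 3.37 ± 0.37, adjusted p = 0.00213). Dpt, encoding the collagen binding protein dermatopontin, had 11.66, 10.42 and 10.56 against 8.14, 6.55, 8.06 and 7.38 (log2 FC 3.35 ± 0.43, adjusted p = 0.00418). Neither gene overlapped between the groups. Cthrc1, a gene of activated fibroblasts, differed by 2.82. The collagen I gene Col1a1 had 12.67, 11.81 and 11.99 against 10.49, 9.76, 9.91 and 9.69 (log2 FC 2.19 ± 0.25, adjusted p = 0.00247). Against control tumors, MEKi alone raised 19 of the 23 genes and CD40 Ab alone none, with medians of 1.38 and -0.19. Over all genes 10.7% were higher than control after MEKi and 1.01% after CD40 Ab.

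The level of the fibroblast list was 11.75, 10.64 and 10.83 in MEKi tumors, 8.91 to 9.93 in CD40 Ab tumors and 9.88 to 10.30 in combination tumors. Control replicate 4, which carried hair follicle signal, had 9.27, below the other 3 controls (9.45 to 9.47). Within the upper series 12 of the 23 genes passed, with a median of 1.85, and leaving out any 1 array left 13 (without CD40 Ab replicate 4) to 20. With the muscle and skin levels as covariates none passed, while the median stayed at 1.73. Genes such as Lum, Dpt and Col1a1 are also expressed by fibroblasts of the dermis, and matrix RNA of the tumor and of skin in the tumor piece cannot be told apart here. In bulk tissue, more cells of a type and more RNA per cell cannot be told apart either.

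**Figure D2:**
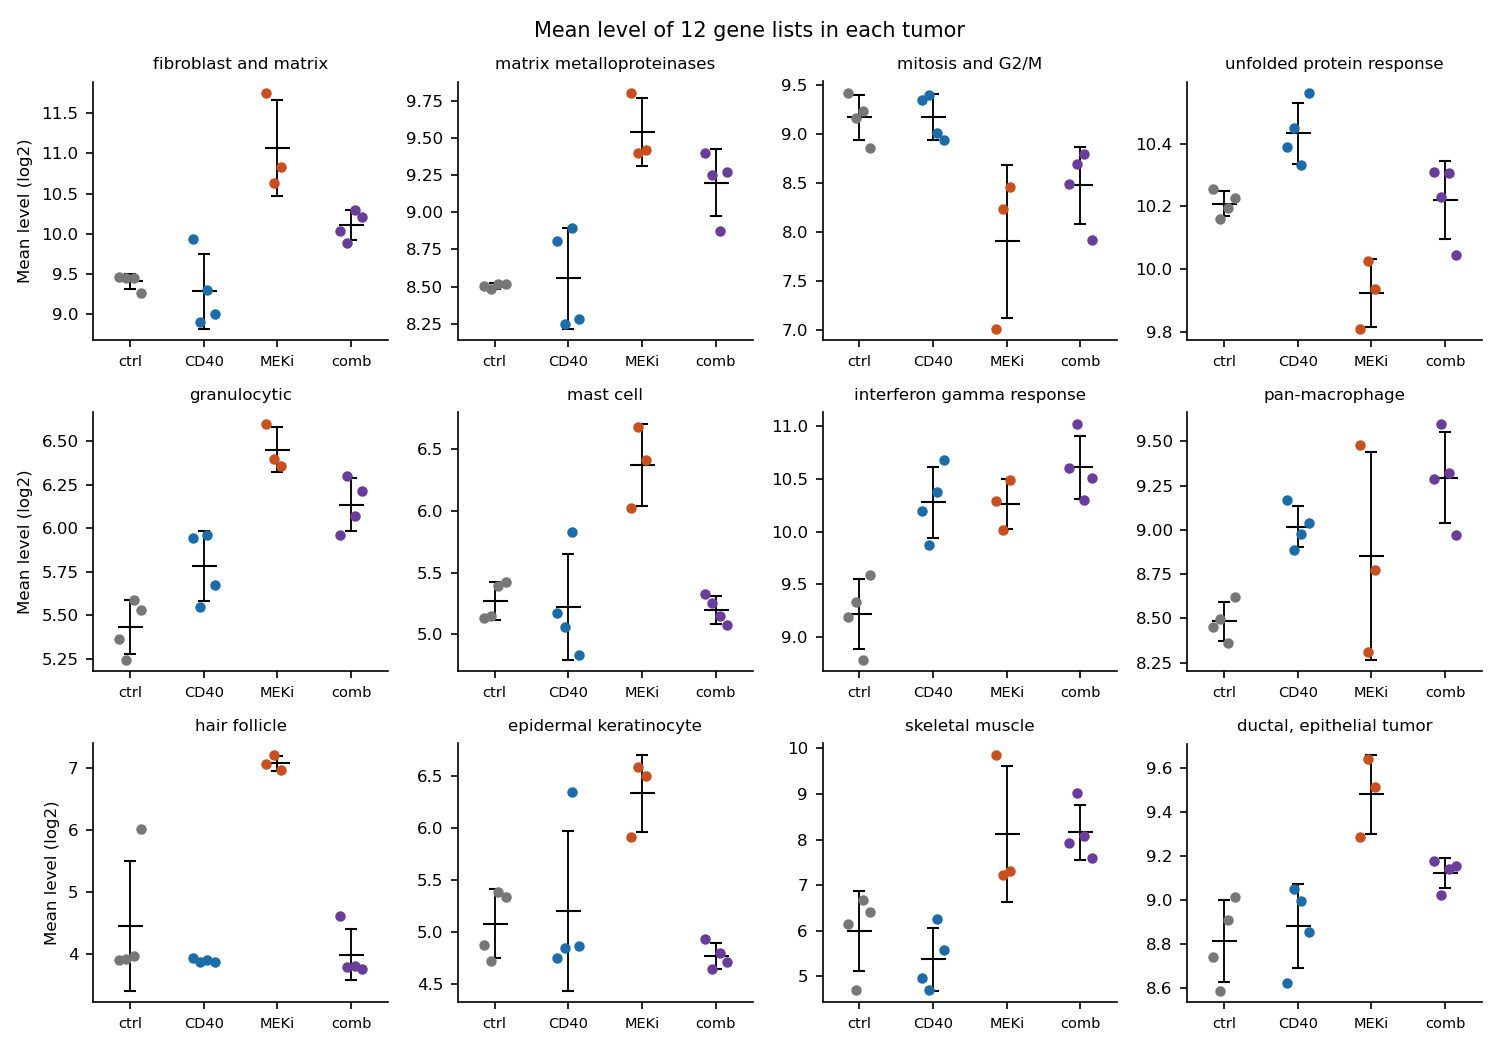
Levels of 12 gene lists (y axis, log2 signal averaged over the genes), a point for each tumor, in control (ctrl), CD40 Ab (CD40), MEKi and combination (comb) tumors, with the group mean and SD (bars). Fibroblast, granulocytic and hair follicle levels of the 3 MEKi tumors lie above all 4 CD40 Ab tumors, mitotic and unfolded protein response levels below them, and interferon gamma response levels overlap (10.02 to 10.49 against 9.87 to 10.68).

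Matrix remodeling and insulin-like growth factor (IGF) genes went the same way. Of 14 matrix metalloproteinase and inhibitor genes, 5 were higher in MEKi tumors and none was lower (median 0.74). The gelatinase gene Mmp2 had 11.64, 10.65 and 10.60 in MEKi and 8.59, 7.48, 8.52 and 7.97 in CD40 Ab arrays (log2 FC 2.82 ± 0.33, adjusted p = 0.00291). The other passing genes named were stromelysin-3, Mmp11 (2.86), Mmp23 (2.31) and stromelysin-1, Mmp3 (1.82). Mmp7, a metalloproteinase of epithelial cells, did not pass (log2 FC 0.52 ± 0.45, adjusted p = 0.528), with 7.48, 6.79 and 7.65 against 6.28, 8.12, 6.37 and 6.38 and CD40 Ab replicate 2 above every MEKi array. Of 11 IGF axis genes, 5 were higher and 1 was lower in MEKi tumors (median 0.47). Igfbp2, which encodes an IGF binding protein, had 11.52, 9.27 and 9.83 against 4.65, 3.53, 6.42 and 4.00 (log2 FC 5.56 ± 0.74, adjusted p = 0.00476), the largest difference outside hair genes. The ligand gene Igf1 had 11.04, 9.28 and 9.20 against 7.36, 6.23, 6.89 and 6.44 (log2 FC 3.11 ± 0.46, adjusted p = 0.00714). The 2 further binding protein genes named moved apart, as Igfbp5 was higher in MEKi tumors (log2 FC 2.54 ± 0.17, adjusted p = 0.000379) and Igfbp3 higher in CD40 Ab tumors (log2 FC -0.86 ± 0.19, adjusted p = 0.0298). Igfbp5 was the only gene of these lists that passed with the muscle and skin covariates (log2 FC 2.47, adjusted p = 0.0357). Within the upper series 2 metalloproteinase genes and 1 IGF axis gene passed, all higher in MEKi tumors.

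Of 10 contractile genes, 4 were higher in MEKi tumors (median 0.65), namely the myosin light chain gene Myl9 (2.35), Des (1.69), Tagln (1.59) and Tpm2 (0.50). Desmin is also a muscle protein, and the other probe set of Des gave a log2 FC of -0.026. With CD40 Ab replicate 2 or 4 or MEKi replicate 3 left out, 1 gene of the list passed. Acta2, the smooth muscle actin gene of myofibroblasts, did not pass (log2 FC 0.63 ± 0.29, adjusted p = 0.223). Among the genes with the largest differences, Prss35, encoding a secreted serine protease-like protein, had 11.39, 10.07 and 10.43 in MEKi and 5.40, 5.83, 6.13 and 5.36 in CD40 Ab arrays (log2 FC 4.95 ± 0.32, adjusted p = 0.000273). It was also the only one of these 10 genes at which CD40 Ab alone differed from control (log2 FC -1.40, adjusted p = 0.0199).

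Some chemokines that attract neutrophils and monocytes were higher after MEKi. Of 14 CC chemokine genes, 4 were higher and 1 was lower in MEKi tumors (median 0.15). With 1 array left out, 2 to 4 were higher (2 without any CD40 Ab array or without MEKi replicate 3) and 0 to 3 lower (3 without MEKi replicate 1), and within the upper series 1 was higher and none lower. Ccl20, the ligand of CCR6, had 10.27, 9.73 and 10.09 in MEKi and 5.72, 6.60, 7.22 and 7.37 in CD40 Ab arrays (log2 FC 3.30 ± 0.37, adjusted p = 0.0023). The monocyte attractants Ccl2 (1.72) and Ccl7 (1.23) and the T cell attractant Ccl17 (1.79) were also higher. Of 14 CXC chemokine genes, 4 were higher and 1 was lower (median 0.27). The CXCR2 ligands Cxcl1 (9.90, 9.59 and 9.30 against 7.70, 7.98, 7.36 and 7.77, log2 FC 1.89 ± 0.18, adjusted p = 0.00112), Cxcl5 (1.93) and Cxcl2 (0.90) were higher in MEKi tumors, and the platelet factor gene Pf4 was lower (-0.73). Their receptor gene Cxcr2 was higher as well (log2 FC 0.88 ± 0.16, adjusted p = 0.016). The CXCR3 ligand genes Cxcl9 (0.14, adjusted p = 0.808) and Cxcl10 (0.93, adjusted p = 0.137), which are induced by interferon gamma, did not pass. Of 16 interleukin 1 and growth cytokine genes, 4 were higher and 2 lower in MEKi tumors (2 to 4 and 1 to 2 with 1 array left out). Il1b had 9.82, 8.61 and 9.61 against 8.10, 7.81, 7.89 and 7.12 (log2 FC 1.62 ± 0.32, adjusted p = 0.0204), and its decoy receptor gene Il1r2 (1.18) and Il18 (1.16) were also higher. The alarmin gene Il33 (-1.08) and Tgfb1, the second lower gene, were higher in CD40 Ab tumors.

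Granulocytic genes were higher in MEKi tumors in 7 of 15 cases and lower in 1 (median 0.58, with 10 of the 15 above 0). By flow cytometry of PDA30364 tumors, the paper reports a strong fall of granulocytic myeloid cells after MEKi and none after CD40 antibody. The RNA of this list is therefore not read here as a count of such cells, and the reason for the unlike directions was not tested. Lcn2, whose product lipocalin-2 is stored in neutrophil granules and also made by epithelia, had 12.10, 11.97 and 11.98 in MEKi and 8.81, 8.66, 9.92 and 9.31 in CD40 Ab arrays (log2 FC 2.84 ± 0.27, adjusted p = 0.00123). S100a8 (10.78, 9.70 and 9.74 against 8.34, 7.48, 8.09 and 7.93, log2 FC 2.11 ± 0.29, adjusted p = 0.00558) and S100a9 (1.91), the calprotectin subunits, and the neutrophil surface gene Cd177 (1.20) did not overlap either. Cd177 was near the bottom of the signal range, at 3.28 to 3.46 in CD40 Ab arrays. Of 10 mast cell genes, 5 were higher in MEKi tumors (median 0.89), including the carboxypeptidase gene Cpa3 (2.54), the chymase gene Cma1 (2.11) and the IgE receptor chain genes Fcer1a (2.17) and Ms4a2 (0.99). CD40 Ab replicate 3, the tumor with epidermal signal, also had the highest mast cell level of its group (5.83 against 4.83 to 5.17; MEKi 6.02 to 6.68), and leaving out 1 array gave 0 (CD40 Ab replicate 2 or 4) to 7 (MEKi replicate 1) mast cell genes. For the granulocytic genes this gave 4 (CD40 Ab replicate 2 or 4) to 7. Within the upper series 3 granulocytic genes and no mast cell gene passed. With the muscle and skin levels as covariates no granulocytic and no mast cell gene passed, with medians of 0.44 and 0.17.

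Few macrophage genes passed. Of 15 pan-macrophage genes, Cd14, the co-receptor for lipopolysaccharide, was higher in MEKi tumors (log2 FC 0.74 ± 0.11, adjusted p = 0.00702) and 14 did not pass (median -0.20). That 1 gene is 6.67% of the list, near the share of 6.89% over all genes. Csf1r had 10.89, 9.44 and 10.02 against 10.51, 10.11, 10.28 and 10.19 (log2 FC -0.16 ± 0.29, adjusted p = 0.792), MEKi replicate 1 lying above and replicates 2 and 3 below all CD40 Ab arrays. Without MEKi replicate 1, 6 pan-macrophage genes were higher in CD40 Ab tumors. Against control, 8 pan-macrophage genes were higher after CD40 Ab (all genes 1.01%) and 1 after MEKi (all genes 10.7%). MEKi replicate 1 also had the highest B cell level, 6.37 against 4.43 and 4.49 in the other MEKi tumors and 4.35 to 4.50 in CD40 Ab tumors. The M2-like list held 1 passing gene in each direction, 6.67% of its genes each way and near the shares over all genes (6.89% and 5.75%). Chil3, a chitinase-like lectin gene, had 7.01, 7.62 and 7.48 in MEKi and 4.27, 3.42, 4.09 and 3.98 in CD40 Ab arrays (log2 FC 3.43 ± 0.22, adjusted p = 0.000273), whereas the mannose receptor gene Mrc1 had 7.94, 8.50 and 8.04 against 10.00, 9.77, 9.23 and 9.02 (log2 FC -1.34 ± 0.25, adjusted p = 0.0161). Arginase 1 (Arg1) did not pass (log2 FC -1.44 ± 0.49, adjusted p = 0.112). Of 13 M1-like genes, Il1b and Tnf (log2 FC 0.77 ± 0.086, adjusted p = 0.0023) were higher in MEKi tumors and the arginine transporter gene Slc7a2 was lower (-0.79), although 1 of its 4 probe sets gave 0.043. Nos2 did not pass (log2 FC 0.13 ± 0.14, adjusted p = 0.636).

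**Figure D3:**
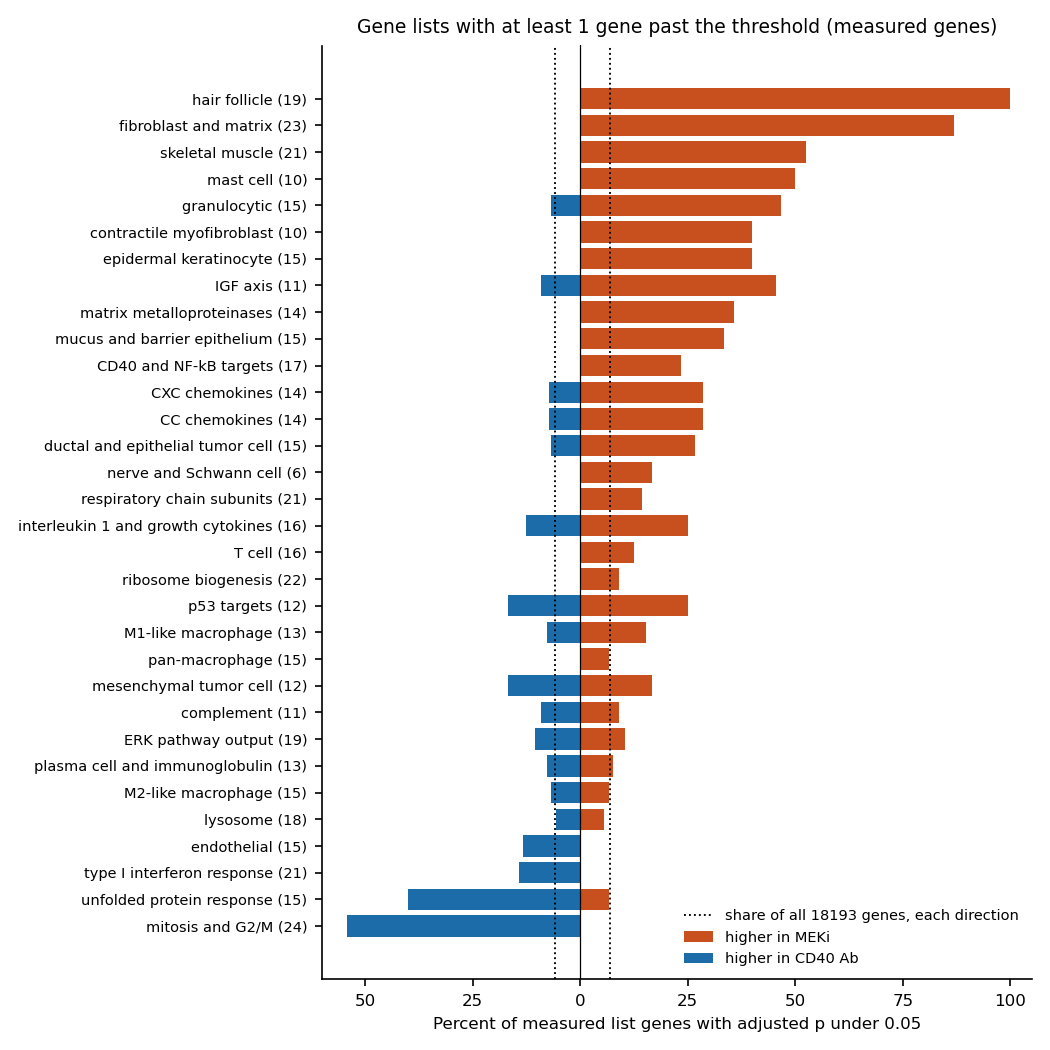
Percent of the measured genes of each list (number in brackets) that were higher in MEKi (orange, to the right) or in CD40 Ab tumors (blue, to the left) at an adjusted p under 0.05, for the 32 lists with at least 1 such gene. Dotted lines mark the shares over all genes (6.89% and 5.75%), which the hair follicle (19 of 19) and fibroblast lists (20 of 23) exceed furthest to the right and the mitosis list (13 of 24) furthest to the left.

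The CD40 and NF-kB target genes that passed were higher in the tumors without the antibody. Of 17 such genes, 4 were higher in MEKi tumors and none was lower (median 0.20), and 9 had a log2 FC above 0. Within the upper series 1 was higher. With 1 array left out 3 to 6 were higher and 0 to 1 lower (1 without MEKi replicate 1). The 4 genes were the NF-kB inhibitors Nfkbia (0.57) and Tnfaip3 (9.77, 9.85 and 9.83 against 9.34, 9.40, 9.14 and 9.17, log2 FC 0.55 ± 0.089, adjusted p = 0.00952), the apoptosis inhibitor gene Birc3 (0.57) and Nfkb2, the subunit of the noncanonical pathway (0.44). These differences were small, and the arrays did not overlap, as at every named gene that passed. The other probe sets of Birc3 (0.13) and Nfkb2 (0.095) did not pass. Against control, Tnfaip3 was 0.62 higher after MEKi (adjusted p = 0.000845) and 0.068 higher after CD40 Ab (adjusted p = 0.828). Cd40 itself was at 6.43 to 6.89 in MEKi and 6.37 to 6.68 in CD40 Ab arrays (log2 FC 0.20 ± 0.13, adjusted p = 0.385), and was above control after either agent (MEKi 0.76, adjusted p = 0.00417; CD40 Ab 0.57, adjusted p = 0.0225).

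Of 13 plasma cell and immunoglobulin genes 1 was higher and 1 lower in MEKi tumors (median -0.044), and of 11 complement genes also 1 and 1 (median -0.046). These are 7.69% and 9.09% of the 2 lists in each direction, near the 6.89% and 5.75% of all genes. Jchain, which joins secreted IgM and IgA, had 5.60, 5.78, 4.65 and 6.57 in CD40 Ab and 4.28, 2.42 and 3.11 in MEKi arrays (log2 FC -2.38 ± 0.51, adjusted p = 0.0276), and was 2.15 above control after CD40 Ab (adjusted p = 0.0332). The IgM heavy chain gene Ighm had 8.16, 8.24, 7.81 and 8.90 against 8.21, 5.71 and 6.50, with MEKi replicate 1 within the CD40 Ab range, and did not pass (log2 FC -1.47 ± 0.53, adjusted p = 0.132). Without MEKi replicate 1 Ighm passed (log2 FC -2.17, adjusted p = 0.00652), and 1 of its 11 probe sets passed with all arrays. Without that array 2 immunoglobulin and 4 complement genes were lower in MEKi tumors, against 0 or 1 and 1 without any other. In the same list Xbp1, a secretory cell transcription factor gene, was higher in MEKi tumors (0.39). The properdin gene Cfp, which stabilizes the alternative complement convertase, had 8.35, 7.94, 7.94 and 8.13 in CD40 Ab and 7.16, 6.60 and 7.13 in MEKi arrays (log2 FC -1.13 ± 0.16, adjusted p = 0.00654), and 0.81 above control after CD40 Ab (adjusted p = 0.0186). Cd55, encoding an inhibitor of that convertase, was higher in MEKi tumors (log2 FC 1.61 ± 0.15, adjusted p = 0.00112).

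The antigen presentation and interferon gamma response lists were among 15 of 47 lists in which no gene passed between the 2 agents. None of 16 interferon gamma response genes passed (median 0.05), nor did any of 15 MHC class I and 10 MHC class II presentation genes (medians -0.13 and 0.019). Without MEKi replicate 1, 1 interferon gamma response gene and 2 MHC class I genes were higher in CD40 Ab tumors, and none in MEKi tumors. Against control, 13 of the 16 interferon gamma genes were higher after MEKi (median 1.03) and 6 after CD40 Ab (median 0.99), and these comparisons share the 4 control arrays. For MHC class I the counts were 7 and 7 (medians 0.71 and 0.79), and for MHC class II 4 and 4 (medians 0.99 and 0.93). Over all genes 10.7% were higher than control after MEKi and 1.01% after CD40 Ab, so like counts stand beside unlike shares. The class II gene H2-Aa was at 12.45, 11.34 and 12.03 in MEKi and 11.95, 11.47, 12.17 and 12.08 in CD40 Ab arrays (log2 FC 0.022 ± 0.26, adjusted p = 0.97), and its transactivator gene Ciita did not pass either (log2 FC 0.13 ± 0.25, adjusted p = 0.796). The peptide transporter gene Tap1 (log2 FC -0.43 ± 0.25, adjusted p = 0.334), the PD-L1 gene Cd274 (log2 FC -0.17 ± 0.25, adjusted p = 0.72) and Ifng (log2 FC -0.058 ± 0.30, adjusted p = 0.929) also did not pass. A p that misses the threshold does not show that the levels were equal, and MEKi replicate 2 had the lowest level of the 7 tumors in both MHC lists (class I 9.85, class II 8.55).

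Of 21 type I interferon genes, 3 were higher in CD40 Ab tumors and none in MEKi tumors, and all 21 had a log2 FC below 0 (-0.93 to -0.11, median -0.32). Leaving out single arrays gave 1 to 3 such genes, and within the upper series none passed, with a median of -0.52. Oasl1, of the oligoadenylate synthetase family, had 7.40, 7.54, 7.14 and 7.70 in CD40 Ab and 6.54, 6.46 and 6.54 in MEKi arrays (log2 FC -0.93 ± 0.13, adjusted p = 0.00552), and Usp18, a brake on the interferon receptor (-0.86), and Mx2, an antiviral GTPase gene (-0.44), did not overlap between the groups. Oasl1 was also 0.44 below control after MEKi (adjusted p = 0.00378).

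T cell genes differed at 2 of 16 genes, both higher in MEKi tumors (median 0.069), and at 1 to 3 with 1 array left out. The 2 genes are 12.5% of the list, beside 6.89% of all genes higher in MEKi tumors and 12.6% that differed in either direction. The transcription factor gene Bcl11b had 8.09, 7.40 and 7.49 in MEKi and 5.45, 5.40, 6.09 and 5.93 in CD40 Ab arrays (log2 FC 1.94 ± 0.22, adjusted p = 0.00257), and Thy1 had 10.34, 9.40 and 9.91 against 9.09, 8.36, 9.08 and 8.60 (log2 FC 1.10 ± 0.25, adjusted p = 0.0343). Bcl11b is also made by skin keratinocytes and Thy1 by fibroblasts, and the T cell receptor and coreceptor genes of the list did not pass. Cd8a was at 6.76, 5.36 and 6.45 in MEKi and 5.68, 5.83, 6.38 and 6.24 in CD40 Ab arrays (log2 FC 0.16 ± 0.32, adjusted p = 0.81), and did not pass. The same held for Cd4 (log2 FC -0.034 ± 0.12, adjusted p = 0.888) and the regulatory T cell gene Foxp3 (log2 FC -0.097 ± 0.11, adjusted p = 0.624). The granzyme gene Gzmb had 7.61, 6.54 and 7.71 against 7.36, 7.17, 8.14 and 8.02 (log2 FC -0.39 ± 0.34, adjusted p = 0.53) and did not pass, nor did the checkpoint receptor gene Pdcd1 (log2 FC -0.25 ± 0.20, adjusted p = 0.49). MEKi replicate 2 lay below every CD40 Ab array at Cd8a, Gzmb and Pdcd1, and the other 2 MEKi arrays did not. None of the genes of the cytotoxic, checkpoint, regulatory T cell, B cell and dendritic cell lists passed with all arrays. Without MEKi replicate 1, 3 cytotoxic, 3 dendritic cell and 1 B cell gene were higher in CD40 Ab tumors. No gene of these lists was higher in MEKi tumors in that fit.

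**Figure D4:**
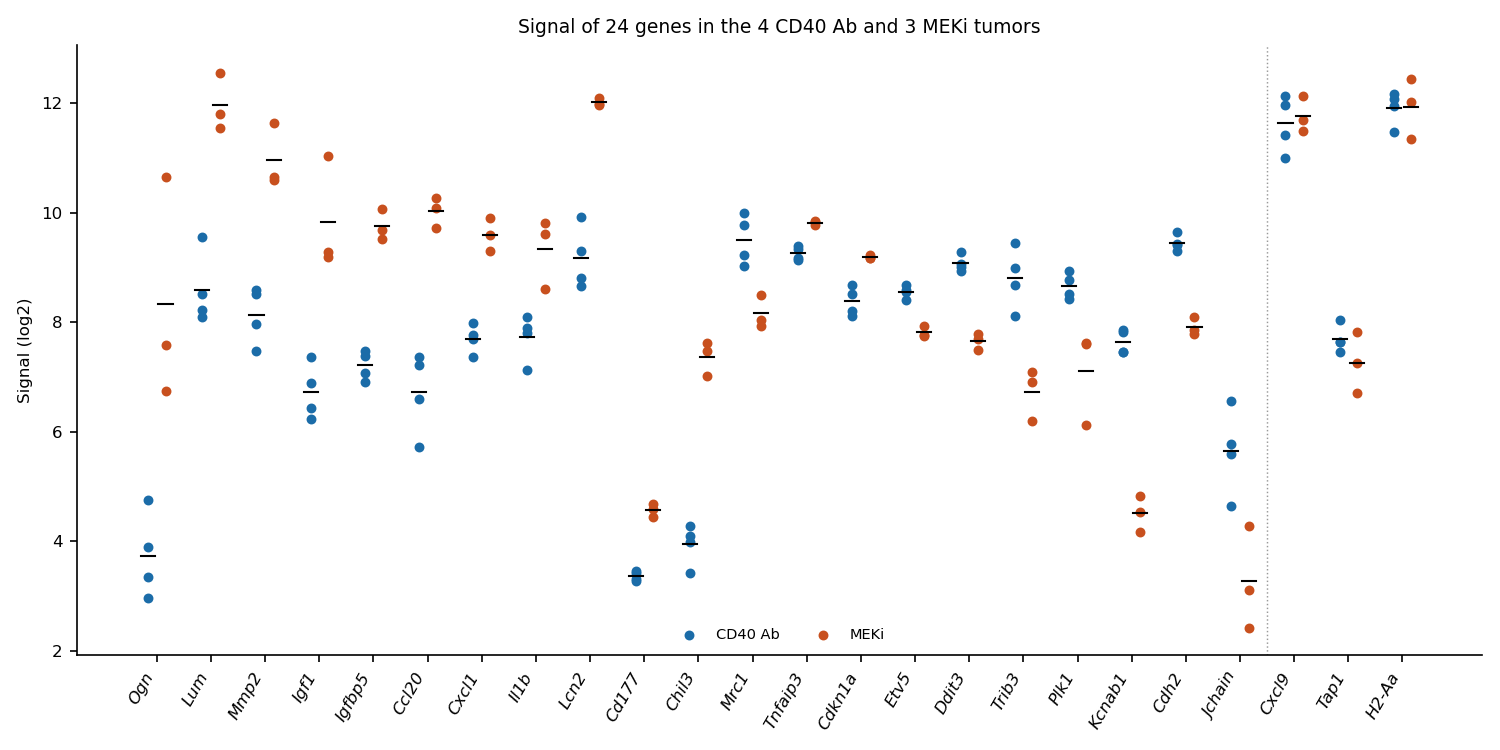
Log2 signal (y axis) of 24 genes in the 4 CD40 Ab (blue) and 3 MEKi tumors (orange), with group means (lines). The 21 genes to the left of the dotted line passed the test and their arrays do not overlap. Cxcl9, Tap1 and H2-Aa, to the right of it, did not pass and overlap.

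Mitotic genes were lower in MEKi than in CD40 Ab tumors. Of 24 genes of mitosis and G2/M, 13 were higher in CD40 Ab tumors and none in MEKi tumors (median -1.28), and all 24 had a log2 FC below 0. The cyclin gene Ccnb2 had 10.08, 10.17, 9.90 and 9.60 in CD40 Ab and 6.89, 8.90 and 8.58 in MEKi arrays (log2 FC -1.81 ± 0.43, adjusted p = 0.0375). The kinase genes Aurka (8.72, 8.94, 8.32 and 8.31 against 5.93, 7.15 and 7.44, log2 FC -1.73 ± 0.34, adjusted p = 0.02) and Plk1 (log2 FC -1.55 ± 0.35, adjusted p = 0.032), which drive spindle assembly and mitotic entry, and the spindle genes Kif20a (-1.77) and Nusap1 (-1.73) showed the same order. In each gene MEKi replicate 1 was the lowest array by more than 1 on the log2 scale, and the other 2 MEKi arrays also lay below every CD40 Ab array. The proliferation marker gene Mki67 did not pass (log2 FC -0.70 ± 0.25, adjusted p = 0.124), and MEKi replicate 3 (9.99) lay above CD40 Ab replicate 4 (9.94). Without MEKi replicate 1, 15 genes passed and the median was -0.84. With any CD40 Ab array left out 1 to 4 genes passed (1 without replicate 2), and within the upper series none did, with a median of -1.08. Against control, none of these genes passed for CD40 Ab alone (median 0.025), and 16 were lower for MEKi alone (median -1.25). Over all genes 10.4% were lower than control after MEKi and 0.0495% after CD40 Ab. With the muscle and skin levels as covariates none passed between the agents, with a median of -0.51. DNA replication genes, in contrast, had no passing member among 27 (median 0.0033), with list levels of 8.26, 8.75 and 9.36 in the 3 MEKi tumors and 8.65 to 8.91 in CD40 Ab tumors.

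Promoters of late cell cycle genes carry a CHR element (TTTGAA), where the DREAM complex and B-Myb bind, and CCAAT boxes bound by NF-Y. In windows of 250 bases before to 50 bases after the RefSeq start site, searched on both strands, TTTGAA was found in 15 of the 19 mitotic genes with a window (78.9%) and in 15.7% of 14452 genes, and ATTGG, the CCAAT box read from the other strand, in 17 of 19 (89.5%) and in 42.0%. The stretches below, from the RefSeq tables of build GRCm38.p6 and written 5' to 3' on the strand of the gene, are shown as examples of mitotic genes whose window holds both motifs (of the 4, Mki67 did not pass), with the CHR letters and the CCAAT boxes on either strand in capitals. For Plk1 and Aurka, where the letters begin 31 and 33 bases from the start site, only 30 bases around them are given.
Ccnb2, chr9:70421525-70421664, minus strand: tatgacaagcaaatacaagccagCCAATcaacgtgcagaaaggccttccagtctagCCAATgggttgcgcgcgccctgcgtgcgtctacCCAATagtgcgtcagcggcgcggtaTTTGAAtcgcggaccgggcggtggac
Mki67, chr7:135716460-135716589, minus strand: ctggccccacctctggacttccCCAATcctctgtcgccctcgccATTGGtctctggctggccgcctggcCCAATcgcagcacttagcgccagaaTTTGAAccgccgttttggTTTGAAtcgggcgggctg
Plk1, chr7:122159453-122159482, plus strand: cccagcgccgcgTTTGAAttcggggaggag
Aurka, chr2:172370521-172370550, minus strand: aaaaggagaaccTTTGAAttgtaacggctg
Counted from the start site as base 1, the CCAAT boxes of Ccnb2 begin at -87, -54 and -21 and the CHR letters of the stretch shown at 5, while the CHR letters of Mki67 begin at -116 and -98. A match is a description of letters and not a measured binding site.

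Stress response genes went in both directions. Of 15 unfolded protein response genes, 6 were higher in CD40 Ab tumors and 1 in MEKi tumors (median 0.0025). The pseudokinase gene Trib3 ranged from 8.11 to 9.45 in CD40 Ab and from 6.19 to 7.09 in MEKi arrays (log2 FC -2.08 ± 0.32, adjusted p = 0.0084). Chac1, a glutathione degrading enzyme gene (-1.85), Ddit3, which encodes CHOP (9.07, 8.93, 9.01 and 9.29 against 7.69, 7.78 and 7.49, log2 FC -1.42 ± 0.11, adjusted p = 0.000588), and Atf3 (-1.28) were also higher in CD40 Ab tumors. These are targets of the transcription factor ATF4, while the passing gene in the other direction was Xbp1, of the IRE1 branch, and the chaperone genes of the list did not pass. Against control, Trib3 was 1.30 lower after MEKi (adjusted p = 0.00429) and 0.79 higher after CD40 Ab, which did not pass (adjusted p = 0.227). Within the upper series 3 of the 6 genes passed, and leaving out any 1 array left 4 to 6.

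Growth signaling genes differed at few points. Of 12 p53 target genes, 3 were higher and 2 lower in MEKi tumors, and with 1 array left out 1 to 3 and 0 to 3, none lower without 5 of the 7 arrays. The CDK inhibitor gene Cdkn1a had 9.18, 9.23 and 9.17 in MEKi and 8.68, 8.52, 8.12 and 8.21 in CD40 Ab arrays (log2 FC 0.81 ± 0.14, adjusted p = 0.0119), Aen was higher by 0.60, and Bbc3 (-0.55) and Sesn2 (-0.58) were lower. Of 19 ERK output genes, 2 were lower in MEKi tumors, the ETS factor gene Etv5 (7.94, 7.75 and 7.76 against 8.40, 8.68, 8.59 and 8.56, log2 FC -0.74 ± 0.093, adjusted p = 0.00378) and the feedback inhibitor gene Spred2 (-0.60), for which only 1 of 5 probe sets passed. The 2 that were higher were the feedback inhibitor gene Spry1 (log2 FC 0.68 ± 0.15, adjusted p = 0.0293) and the immediate early gene Fos (log2 FC 0.79 ± 0.18, adjusted p = 0.0345), and the list median was -0.028. With 1 array left out, 0 or 1 ERK output gene was higher. Other members commonly read as markers of ERK activity did not pass, including Dusp6 (log2 FC -0.084 ± 0.15, adjusted p = 0.772), Etv4 (log2 FC -0.35 ± 0.099, adjusted p = 0.0655), Spry4 (log2 FC 0.34 ± 0.20, adjusted p = 0.35) and Ccnd1 (log2 FC 0.0017 ± 0.067, adjusted p = 0.991). At Dusp6 the MEKi arrays (11.05, 10.40 and 10.78) spanned the whole range of the CD40 Ab arrays (10.77 to 10.97). Of 22 ribosome biogenesis genes, Rrp12 (0.57) and the RNA polymerase I subunit gene Polr1b (0.43) were higher in MEKi tumors. So were 3 of 21 respiratory chain genes by 0.34 to 0.36 (Ndufa4, Cox6c and Ndufa1), though none when any array other than MEKi replicate 1 was left out, and 0 to 3 ribosome biogenesis genes were higher with 1 array left out. Of 18 lysosome genes the protease gene Ctsh was higher (log2 FC 1.37 ± 0.14, adjusted p = 0.00159) and Mcoln1 lower (-0.33). The ribosome biogenesis (9.09% higher) and lysosome lists (5.56% in each direction) were near the shares over all genes (6.89% and 5.75%). None of the cholesterol, fatty acid, hypoxia and EGFR family genes passed, Hmgcs1 of cholesterol synthesis among them (log2 FC -0.36 ± 0.26, adjusted p = 0.439).

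Some epithelial genes were higher under MEKi. Of 15 ductal and epithelial genes, 4 were higher and 1 was lower in MEKi tumors (median 0.35). With 1 array left out, 7 were higher without MEKi replicate 1 and 1 or 2 without any of the other 6. Epcam had 10.31, 11.42 and 11.08 in MEKi and 7.02, 9.94, 8.95 and 8.21 in CD40 Ab arrays (log2 FC 2.41 ± 0.61, adjusted p = 0.0474), a gene with wide spread among CD40 Ab tumors. The mucin gene Muc1 (1.04), the tight junction gene Cldn4 (0.69) and Esrp1, a splicing regulator of epithelial cells (log2 FC 2.61 ± 0.21, adjusted p = 0.000717), were also higher. Esrp1 is also expressed in epidermis, and its highest CD40 Ab array was replicate 3 (3.92), the tumor with epidermal signal. Krt19, the ductal keratin, was at 13.20, 13.59 and 13.46 against 13.06, 13.21, 13.07 and 13.05 and did not pass (log2 FC 0.32 ± 0.10, adjusted p = 0.102). Of 15 mucus and barrier genes, 5 were higher in MEKi tumors, among them the immunoglobulin transporter gene Pigr (9.18, 11.45 and 10.67 against 6.45, 7.79, 7.99 and 8.05, log2 FC 2.86 ± 0.56, adjusted p = 0.0199), the trefoil genes Tff2 (2.72) and Tff3 (2.09) and the antimicrobial lectin gene Reg3g (1.80). Here MEKi replicate 1 was the lowest MEKi array in each gene, and with any array other than that one left out 0 to 2 genes of the list passed (0 without MEKi replicate 3).

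Of 12 mesenchymal tumor cell genes, 2 were higher and 2 lower in MEKi tumors (1 to 2 and 1 to 3 with 1 array left out). N-cadherin (Cdh2) had 9.64, 9.43, 9.31 and 9.42 in CD40 Ab and 8.09, 7.79 and 7.85 in MEKi arrays (log2 FC -1.54 ± 0.11, adjusted p = 0.000416) and the receptor kinase gene Axl was also lower (-0.87). Tnc, a matrix glycoprotein gene (1.58), and Prrx1, a mesenchymal transcription factor gene (log2 FC 1.13 ± 0.13, adjusted p = 0.00277), were higher, and both are expressed by fibroblasts as well. Of the 6 probe sets of Prrx1, 5 passed and 1 had a log2 FC of -0.046. Of 15 endothelial genes, the junction gene Cldn5 (log2 FC -1.36 ± 0.22, adjusted p = 0.00963) and Vwf (-1.09) were higher in CD40 Ab tumors (1 without MEKi replicate 3). Of 6 nerve and Schwann cell genes, Ncmap, a myelin protein gene, was higher in MEKi tumors (1.03). The adipocyte and red blood cell genes had no passing member (medians -1.02 and -0.15). The adipocyte level was 5.38 to 7.31 in CD40 Ab tumors, with Adipoq at 9.66, 7.89, 4.22 and 7.40 against 6.04, 4.08 and 4.30 in MEKi tumors (log2 FC -2.49 ± 1.13, adjusted p = 0.22).

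Dynap, a membrane protein gene, led the 10 genes with the largest differences in the direction of CD40 Ab. It had 9.24, 9.47, 7.55 and 7.03 in CD40 Ab and 3.29, 5.02 and 4.21 in MEKi arrays (log2 FC -4.15 ± 0.65, adjusted p = 0.00899). Acsbg1, an acyl-CoA synthetase gene of brain (9.76, 9.97, 9.25 and 9.11 against 5.20, 7.20 and 6.46, log2 FC -3.24 ± 0.43, adjusted p = 0.00479), the potassium channel subunit gene Kcnab1 (7.46, 7.82, 7.86 and 7.45 against 4.82, 4.54 and 4.16, log2 FC -3.14 ± 0.17, adjusted p = 0.000143) and Klhl1 (-2.92) followed. The synaptic vesicle gene Synpr (-2.88), the neuronal ubiquitin hydrolase gene Uchl1 (-2.60), Clca3a1 (-2.59), the proteoglycan gene Acan (-2.43), the drug efflux pump gene Abcb1b (-2.42) and Jchain completed the 10. The 10 were chosen from passing genes whose arrays do not overlap, so every CD40 Ab array lay above every MEKi array in each. At the 9 genes other than Jchain, MEKi alone was below control (adjusted p = 5.34e-05 to 0.00493) and CD40 Ab alone did not pass against control (adjusted p = 0.231 to 0.970). Jchain was the reverse, at 3.27 after MEKi, 3.5 in control and 5.65 after CD40 Ab.

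The 4 combination tumors, which the fit did not use, were compared with the 2 single agents. Of the 1254 genes higher in MEKi, 479 (38.2%) had a combination mean closer to the MEKi mean, with a median position of 0.38 on a scale from 0 at CD40 Ab to 1 at MEKi. Of the 1046 genes higher in CD40 Ab tumors, 453 (43.3%) were closer to MEKi, with a median position of 0.45. None of the 19 hair follicle, 6 epidermal, 5 mast cell, 7 granulocytic and 5 metalloproteinase genes was closer to MEKi, while all 11 muscle, 4 contractile and 4 CD40 and NF-kB target genes were. Of the 20 fibroblast genes, 8 were closer to MEKi and 12 to CD40 Ab, and all 20 lay between the 2 means. The combination mean was 8.13 at Mrc1 (MEKi 8.16, CD40 Ab 9.51) and 4.1 at Synpr (MEKi 4.32), that is at the MEKi level. At Jchain (6.04) and Slc7a2 (8.15) it was above the CD40 Ab mean. Genes were chosen for their difference between the single agents, all combination tumors were of the lower animal number series and the combination tumors held little hair follicle signal, so that these positions are a description.

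**Figure D5:**
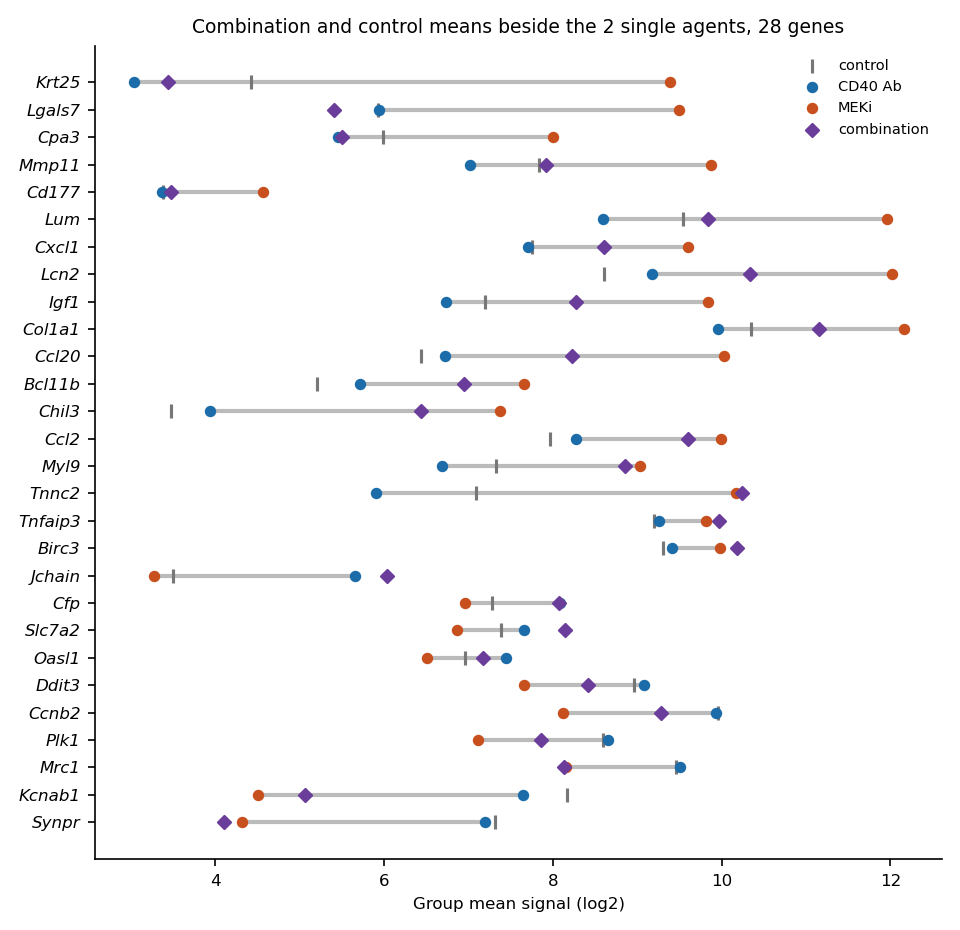
Group mean log2 signal of 28 genes in control (gray mark), CD40 Ab (blue), MEKi (orange) and combination tumors (purple diamond), a gray bar joining the 2 single agents. The diamond lies by the blue end for Krt25, Cpa3 and Cd177, by the orange end for Tnnc2, Mrc1 and Synpr, and beyond the blue end for Lgals7, Jchain and Slc7a2.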

How the data were processed

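RNA of 15 whole tumors was measured on Affymetrix mouse arrays, 1 per animal. The authors deposited log2 signals per probe set, made with RMA in Chipster, whose version is not given in the sources used here. RMA makes arrays alike in their overall distribution, so a shift of all genes together would be lost, and low signals are compressed. Groups were taken from the sample titles. Of 45101 probe sets, 64 controls were left out, and of the 45037 tested 34945 had 1 gene symbol, 932 several and 9160 none.

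The 3 MEKi and 4 CD40 Ab arrays were fitted with limma 3.58.1 (lmFit and eBayes, R 4.3.3) and p-values were adjusted by Benjamini-Hochberg over all probe sets, with a threshold of 0.05. Each agent against control was fitted likewise. A list level is the mean log2 signal over its measured genes. Array measures were compared by exact two-sided permutation tests, adjusted over 7 tests. The labels name 1 animal per array, so p-values measure the spread between these animals. The fit was tested on simulated data. Figures and summaries were made with Python 3.11.15, pandas 2.3.3, numpy 2.4.6, scipy 1.17.1 and matplotlib 3.10.9.

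The members, gene lists and genes of interest were chosen with earlier results of these data known. Named genes were the 10 largest differences in each direction among passing genes without overlap, up to 4 passing members per list by size, and a list of genes of interest named whatever their values. Promoter sequences were taken from RefSeq tables (GRCm38.p6). Alternatives were other normalizations, filters, priors, gene summaries and thresholds, a block on replicate number, the animal number series, the tissue levels as covariates and the omission of each array. The precision is limited by the number of arrays.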

Additional observations from a re-analysis of the deposited data

Results flagged for a closer look

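Among the 4 CD40 Ab tumors, 1 tumor lay far from the other 3 in 9 of 148 named genes and in 1 of 47 lists, as measured by its gap to the nearest tumor divided by the range of the group (Dixon's test). Chance gives such a gap in about 1 of 20 groups.

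CD40 Ab replicate 3 was high in the epidermal keratinocyte list (ratio 0.931, level 6.35 against 4.75 to 4.86), in Lgals7 (0.867, 8.08 against 5.00 to 5.41), in Krt5 (0.856, 6.91 against 4.89 to 5.18) and in Esrp1 (0.840, 3.92 against 3.11 to 3.24). CD40 Ab replicate 2 was high in Mmp7 (0.946, 8.12 against 6.28 to 6.38), in Dusp6 (0.90, 10.97 against 10.77 to 10.79) and in Krt19 (0.875, 13.21 against 13.05 to 13.07). CD40 Ab replicate 1 was high in Clca3a1 (0.904, 8.04 against 6.79 to 6.91) and low in Pigr (0.8375, 6.45 against 7.79 to 8.05). CD40 Ab replicate 4 was high in Ifng (0.907, 5.65 against 4.90 to 4.97).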

How the results depend on the processing

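Against 4100 probe sets and 1254 and 1046 genes (higher in MEKi and in CD40 Ab tumors), a fit of all 15 arrays gave 7858 (2150 and 2205), an adjusted p under 0.01 gave 1132 (441 and 239), and a further 2-fold minimum 1304 (609 and 192). One value per gene gave 2667 calls and the mean over probe sets 2558, over fewer features. The series as a covariate gave 1353 (509 and 296), the upper series alone 891 (377 and 164), and muscle and skin levels together 13 (6 and 3). Chosen after seeing the data, muscle alone gave 1714 (618 and 438) and skin alone 36 (10 and 8). Leaving out 1 array gave 1962 (without CD40 Ab replicate 2) to 4289 (without MEKi replicate 1) probe sets, 680 to 1367 genes higher in MEKi and 455 to 1063 higher in CD40 Ab tumors. Intensity trend, array weights, further normalization, and filters on dim or ambiguous probe sets kept the probe set count at 3584 to 4500. The replicate number as a block gave 2174 (832 and 421). Same-numbered MEKi and CD40 Ab tumors had correlations of 0.2074, 0.1941 and -0.03255, so the numbers were not taken to pair the tumors. The cause of these changes was not tested, beyond the loss of arrays or features where stated.

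Of 118 named genes past the threshold, 118 passed in the fit of all 15 arrays, 58 with the series covariate, 50 in the upper series, 52 with muscle alone, 4 with skin alone and 2 with both tissue levels. The sign turned, with no gene passing, at these log2 FC values. With both tissue levels they were Krt25 -0.89, Krtap8-1 -0.14, Myh1 -1.46, Tchh -0.47, Il33 0.29, Cma1 -0.0058, Des -0.39, Tnnc2 -0.97, Lgals7 -1.49, Krt5 -0.44 and Epcam -0.16. With muscle alone they were Des -0.084 and Tnnc2 -0.021. With skin alone they were Krt25 -1.18, Krtap8-1 -0.42, Tchh -0.48, Jchain 0.22, Il33 0.12, Cma1 -0.027, Lgals7 -0.97, Krt5 -0.53, Epcam -0.22 and Cldn4 -0.16. The hair follicle, epidermal keratinocyte and skeletal muscle list genes named here were themselves part of the matching covariates. Sign changes of genes that passed in neither fit were not counted.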
